A study of Mus musculus with 4 samples.

Results

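The 8 genes described here encode transcriptional regulators that set effector lineages of lymphocytes: Tbx21, Eomes, Gata3, Rora, Zbtb16, Id2, Id3 and Prdm1. They were taken by name, not by their values, from the 31053 genes of the deposited count tables, and all 8 were present there. Their levels and their detection in the same cell barcode were measured in 5 kinds of lymphocyte, each gated by marker genes that include none of the 8.

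The study sequenced single mouse leukocytes with a 5′ droplet kit that counts unique molecular identifiers (UMIs), in 4 libraries of pre-diabetic females. The pancreas libraries held CD45+ cells sorted by flow cytometry at 12 weeks of age, with 4 mice per group. The lymph node libraries held CD3 T cells of the pancreatic lymph node, isolated by magnetic separation at 8 weeks, with 5 mice per group. In each tissue the control group was Ocabfl/fl and the other group was Ocabfl/fl.CD4-Cre, called CD4-Cre below. Both groups carried the floxed Ocab allele, and a control with Cre but without the floxed allele was not analysed here. Ocab is another name of Pou2af1, which encodes a coactivator that binds the octamer factors Oct1 and Oct2. Cre under the Cd4 promoter is active from the thymic stage at which T cells carry both CD4 and CD8, so cells of both the CD4 and CD8 lineages derive from Cre-expressing precursors. The labels do not name the strain. Each group was 1 library made from several mice, so there is no replicate, no test between genotypes was possible, and each difference below compares 2 libraries. Tissue, age and cell selection differed together and cannot be told apart, so no ratio between tissues was taken.

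T-bet (the product of Tbx21) and Eomes are paralogous T-box factors that drive type 1 and cytotoxic programmes in T and NK cells. GATA3 and RORα (Rora) drive type 2 programmes and the development of group 2 innate lymphoid cells (ILC2), while PLZF (Zbtb16) marks innate-like lymphocytes. Id2 and Id3 bind E proteins and keep them off DNA, Id2 being known for effector and innate lymphocytes and Id3 for naive and memory precursor T cells, and Blimp-1 (Prdm1) represses genes in terminally differentiated effector, regulatory and plasma cells.

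The libraries listed 4524 and 6963 barcodes in the control and CD4-Cre pancreas and 3059 and 6528 in the lymph node. After removal of barcodes with few genes or high mitochondrial share and of likely doublets, 4004, 6238, 2843 and 5304 remained, with medians of 3583, 3591, 4600 and 4392 UMIs. Pairs of libraries shared 15 to 58 barcode sequences, at most 1.2% of the smaller library. The gates took 864 control and 1966 CD4-Cre pancreas barcodes as CD4-only T, 405 and 635 as CD8-only T, 102 and 109 as gamma-delta T, 223 and 284 as NK and 17 and 29 as ILC2. In the lymph node they took 1247 and 2615 as CD4-only T and 710 and 1473 as CD8-only T, but only 8 and 16 as gamma-delta T, 2 and 0 as NK and 0 and 1 as ILC2, so lymph node values are given for CD4-only and CD8-only barcodes. Pou2af1, the floxed gene, gave 20 UMIs in control and 4 in CD4-Cre pancreas CD4-only barcodes (6.06 and 0.541 CPM, UMIs of the gene scaled to the total of the gate), and 39 and 1 in the lymph node. In CD8-only barcodes it gave 6 and 0 UMIs in pancreas and 14 and 0 in lymph node. In pancreas B cell barcodes its level was 211 CPM in the control and 220 CPM in the CD4-Cre library. Which exons are floxed is not given in the sources used here, so these counts check the labels only as far as the reads cover the deleted part.

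The gates were compared with marker genes that are not members. Gzma, a granule protease gene that the gate rules did not use, was found in 86.55% of control and 82.75% of CD4-Cre NK barcodes and was at 0 in ILC2 barcodes. ILC2 barcodes also had Trdc at 0, whereas the share with Il1rl1, the IL-33 receptor gene (88.24% and 86.21%), partly restates the rule of that gate. Yet 9 gamma-delta markers, Trdc among them, summed to 384 and 437 CPM in ILC2 barcodes (6 and 5 at 0). In NK barcodes the same list summed to 206 and 177 CPM. The 9 T cell markers summed to 548 and 401 CPM in ILC2 barcodes (5 at 0 in each library). Trdc, required for the gamma-delta gate, was also found in 43.5% and 36.62% of NK barcodes, and Trac in 22.55% and 24.77% of gamma-delta barcodes. Of these gamma-delta barcodes, 60.78% in the control and 67.89% in the CD4-Cre library also had a UMI of the NK receptor genes Ncr1 or Klre1. The summed level of 12 NK markers in the gamma-delta gate was 7590 and 7347 CPM, against 26957 and 25796 CPM in the NK gate. The gate is therefore called by its rule, and its values are also given split by Ncr1 and Klre1. In the CD4-Cre pancreas CD8-only gate, 7 summed islet and exocrine markers were at 1948 CPM, against 56.2 CPM in the control (1 of the 7, Prss1, at 0 in both), and their part in the results was not tested.

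The promoters of the paralogous pair Tbx21 and Eomes are printed because the levels of these genes ran together over gates, as the values below show. The sequences are the 250 bases before the RefSeq start in assembly GRCm38.p6, at chr11:97115332-97115581 on the minus strand for Tbx21 and chr9:118477939-118478188 on the plus strand for Eomes. Capitals mark the E-box, CANNTG, the motif that E proteins bind and that Id2 and Id3 keep them from.
Tbx21: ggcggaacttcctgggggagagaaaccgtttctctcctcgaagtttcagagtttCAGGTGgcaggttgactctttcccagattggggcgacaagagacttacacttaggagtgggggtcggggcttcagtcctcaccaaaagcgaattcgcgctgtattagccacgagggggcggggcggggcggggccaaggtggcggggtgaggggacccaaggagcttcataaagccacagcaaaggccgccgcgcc
Eomes: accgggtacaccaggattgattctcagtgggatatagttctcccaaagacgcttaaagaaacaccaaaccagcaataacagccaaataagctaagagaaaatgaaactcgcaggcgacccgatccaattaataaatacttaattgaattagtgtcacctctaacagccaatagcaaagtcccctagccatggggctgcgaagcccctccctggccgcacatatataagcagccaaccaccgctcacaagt
The Tbx21 window held 1 E-box, starting 196 bases before the start, and the Eomes window held none. The GC content was 60.8% for Tbx21 and 46.4% for Eomes. An E-box occurred in 3 of the 7 members with an entry (Tbx21, Id2 and Prdm1) and in 66.2% of 32851 promoter windows of the same length, read on both strands. The windows of Id2 and Prdm1, like those of Gata3 and Id3, lie within the annotated span of their own gene, given below. The octamer ATGCAAAT, the sequence bound by the partners of Ocab, occurred in 0 of the 7 and in 1.6% of all windows. The T-box core TCACACC (3.33% of all windows), the RUNX core TGTGGT (14%) and the GATA site AGATAA (9.99%) also occurred in 0 of the 7. A match describes letters in this window and is no evidence of binding.

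The genes lie on different chromosomes except for Eomes, Rora and Zbtb16, which are all on chromosome 9. In GRCm38, Tbx21 (ENSMUSG00000001444) spans chr11:97098071-97115331, Eomes (ENSMUSG00000032446) chr9:118478212-118486132 and Gata3 (ENSMUSG00000015619) chr2:9857078-9890034. Rora (ENSMUSG00000032238) spans chr9:68653786-69388246 and Zbtb16 (ENSMUSG00000066687) chr9:48654297-48836222. Id2 (ENSMUSG00000020644) spans chr12:25093799-25097140, Id3 (ENSMUSG00000007872) chr4:136143497-136145755 and Prdm1 (ENSMUSG00000038151) chr10:44437177-44528501. All 8 are annotated as protein coding.

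Levels below are CPM of the UMIs summed over a gate, with exact Poisson 95% intervals that cover counting error only. A low summed level can mean fewer cells with the transcript or less of it per cell, which cannot be told apart from the sum, so shares of barcodes with a UMI are added. Tbx21 was highest in NK barcodes, at 292 CPM (258 to 329) in the control and 319 CPM (289 to 352) in the CD4-Cre pancreas. It followed in gamma-delta barcodes at 160 CPM (125 to 200) and 190 CPM (156 to 228), then in CD8-only barcodes at 64.8 CPM (53.8 to 77.4) and 40.5 CPM (33.7 to 48.3). CD4-only barcodes came lower still, at 27.3 CPM (21.9 to 33.5; 90 UMIs) and 22.2 CPM (18.9 to 25.9; 164 UMIs). Neighbouring intervals in this order did not overlap in either library. ILC2 barcodes had 0 and 1 UMI, and 0 allows up to 41.1 CPM in the 17 control barcodes, above the CD4-only level, so absence was not detectable at this depth. In the lymph node Tbx21 was at 3.58 and 2.41 CPM in CD4-only and at 10.2 and 8.36 CPM in CD8-only barcodes, control first. These lymph node UMIs came from few barcodes: 5 barcodes held 54.8% of the control and 30.4% of the CD4-Cre CD8-only UMIs.

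Eomes set CD8-only barcodes apart from CD4-only barcodes far more than Tbx21 did. NK barcodes held 488 CPM (443 to 535) in the control and 484 CPM (447 to 524) in the CD4-Cre pancreas, gamma-delta barcodes 179 CPM (143 to 222) and 188 CPM (154 to 226). CD8-only barcodes held 129 CPM (113 to 146) and 115 CPM (104 to 128). The gamma-delta and CD8-only intervals overlapped in the control and not in the CD4-Cre library. CD4-only barcodes held 21 UMIs in each library, 6.36 CPM (3.94 to 9.73) in the control and 2.84 CPM (1.76 to 4.35) in the CD4-Cre pancreas. The 21 control UMIs lay in 6 barcodes, 12 of them in 1 barcode, and the 21 CD4-Cre UMIs lay in 12 barcodes. ILC2 barcodes held 0 Eomes UMIs in both libraries, which allows up to 41.1 and 26.7 CPM. Lymph node CD8-only barcodes held 39.9 CPM (34 to 46.5) and 36.5 CPM (32.5 to 40.8), and CD4-only barcodes 3.25 and 2.33 CPM.

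**Figure D1:**
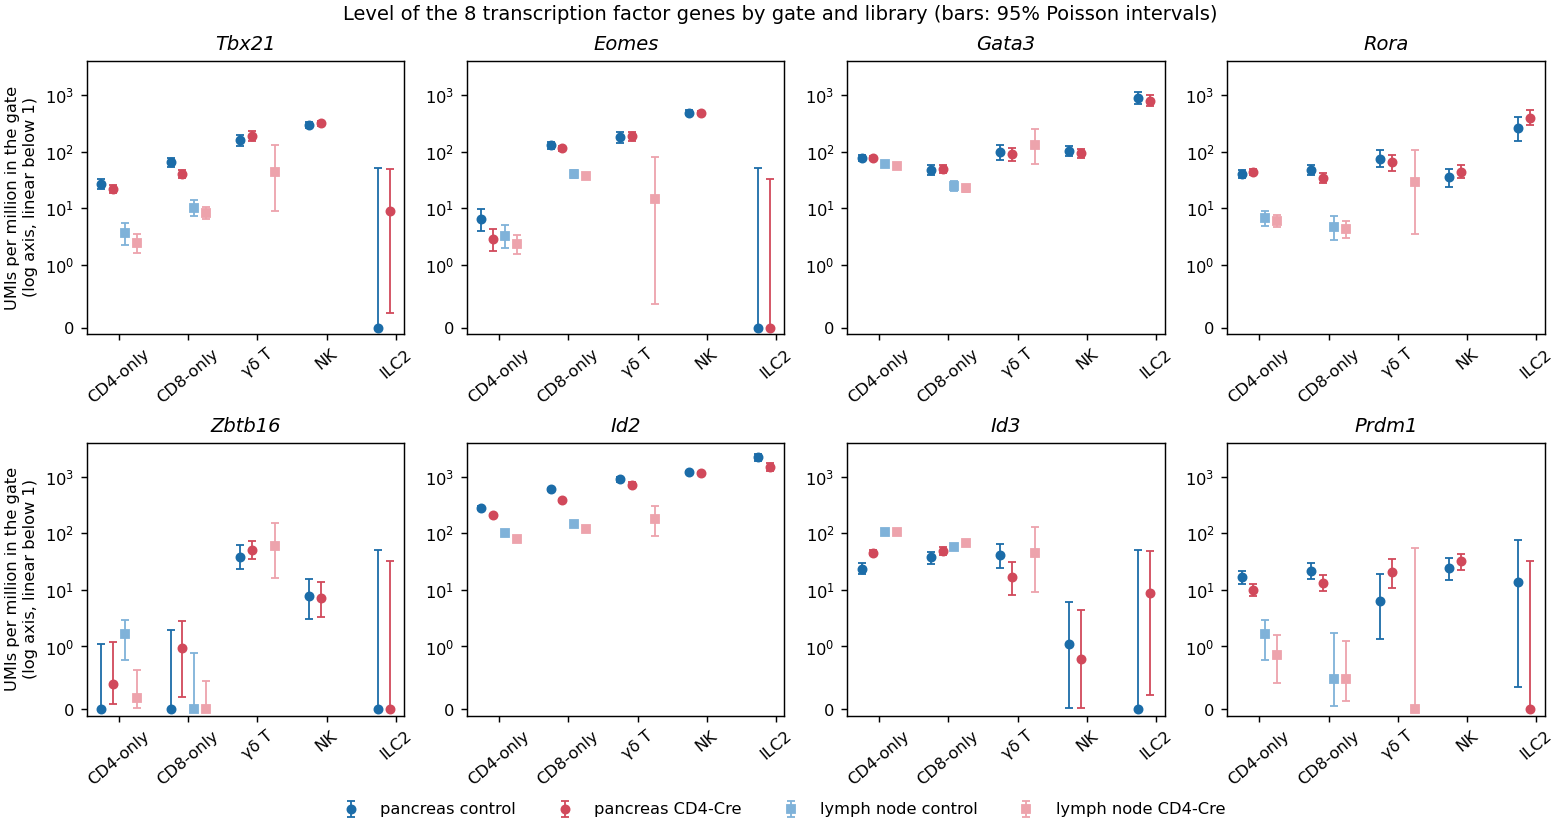
Level of each of the 8 genes in each gate and library, in CPM on a log axis that is linear below 1, with exact Poisson 95% intervals; each panel is 1 gene and each colour 1 library. Tbx21 and Eomes peak in pancreas NK barcodes (292 and 488 CPM in the control), Gata3, Rora and Id2 in ILC2 barcodes (890, 260 and 2205 CPM), and Id3 is near 0 in NK barcodes (1 UMI in each library).

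Shares of barcodes with a UMI were also compared. After thinning each barcode to 1000 UMIs, Eomes was detected in 38.46% of control and 36.65% of CD4-Cre pancreas NK barcodes in 10.78% and 17.43% of gamma-delta barcodes and in 8.458% and 8.847% of CD8-only barcodes. Unthinned, these shares were 68.16% and 73.24% in NK, 28.43% and 40.37% in gamma-delta and 30.37% and 22.99% in CD8-only barcodes, so gamma-delta and CD8-only barcodes of the control were not ordered by their Eomes share. Tbx21 was detected in 22.17% and 25.98% of thinned NK barcodes, 5.721% and 3.633% of CD8-only barcodes and 1.626% and 1.94% of CD4-only barcodes. In B cell barcodes the thinned Tbx21 share was 0.5256% and 0.5213%, at unthinned medians of 3575 and 3441 UMIs, against 3798 and 3886 in CD8-only barcodes. The B cell gate held 18 and 34 Tbx21 UMIs, and whether these cells carry the transcript was not tested, so their share is no floor for Tbx21. The CD4-only interval lay above the B cell interval in the CD4-Cre library (1.376 to 2.653 against 0.1915 to 1.131) and overlapped it in the control (0.8917 to 2.713 against 0.1434 to 1.34).

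Gata3 was highest in ILC2 barcodes, at 890 CPM (687 to 1135) in the control and 802 CPM (645 to 986) in the CD4-Cre pancreas. NK barcodes followed with 102 CPM (82.4 to 125) and 94.8 CPM (78.5 to 113), gamma-delta barcodes with 99.2 CPM (72.6 to 132) and 90.5 CPM (67.8 to 118). CD4-only barcodes had 77.6 CPM (68.4 to 87.7) and 76.9 CPM (70.7 to 83.5). Intervals of NK, gamma-delta and CD4-only barcodes overlapped, so these 3 gates could not be ordered, while CD8-only barcodes were lower at 47.7 CPM (38.3 to 58.7) and 50.3 CPM (42.7 to 58.9). B cell barcodes held 0 Gata3 UMIs in both pancreas libraries. Lymph node Gata3 stood at 60.4 CPM (54.4 to 66.8) and 55.9 CPM (51.7 to 60.4) in CD4-only and at 24.6 CPM (20 to 29.9) and 22.5 CPM (19.4 to 26) in CD8-only barcodes, so the CD4-only level exceeded the CD8-only level in all 4 libraries.

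Rora also peaked in ILC2 barcodes, at 260 CPM (157 to 406; 19 UMIs) in the control and 401 CPM (293 to 537; 45 UMIs) in the CD4-Cre pancreas. The other pancreas gates lay between 35.1 CPM in NK and 75.5 CPM in gamma-delta barcodes of the control and between 34 CPM in CD8-only and 64.9 CPM in gamma-delta barcodes of the CD4-Cre library. Neighbouring intervals among these 4 gates overlapped in both libraries. The control gamma-delta interval (52.6 to 105) still lay above those of NK (24 to 49.6) and CD4-only barcodes (34.3 to 48.4). In the CD4-Cre library it (45.9 to 89.1) lay above the CD8-only interval only (27.8 to 41.2). Lymph node Rora was at 6.67 and 5.94 CPM in CD4-only and at 4.63 and 4.24 CPM in CD8-only barcodes, control first, against 40.9 and 43.9 CPM in pancreas CD4-only barcodes. Pancreas B cell barcodes had 0.94 and 0.433 CPM.

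Among the 3 pancreas T cell gates most Zbtb16 UMIs lay in gamma-delta barcodes. They held 18 UMIs in the control (38.8 CPM, 23 to 61.3) and 30 in the CD4-Cre library (51.2 CPM, 34.6 to 73.1). CD4-only barcodes held 0 and 3 UMIs, the 3 in 1 barcode, and CD8-only barcodes 0 and 3. The count of 0 in 864 control CD4-only barcodes allows up to 0.909 CPM. NK barcodes had 7 and 9 UMIs (7.69 and 7.17 CPM), and myeloid barcodes 9.06 and 7.41 CPM, close to the NK level. Lymph node CD4-only barcodes held 10 UMIs in 6 control barcodes and 2 UMIs in the CD4-Cre library.

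The gamma-delta gate held barcodes of 2 patterns when it was split by Ncr1 and Klre1, a split chosen after seeing the data. The 62 control and 74 CD4-Cre barcodes with an Ncr1 or Klre1 UMI had Tbx21 at 186 and 240 CPM and Eomes at 235 and 220 CPM, whereas the 40 and 35 without one had Tbx21 at 99.4 and 28.7 CPM (14 and 4 UMIs) and Eomes at 49.7 and 86 CPM (7 and 12 UMIs). Rora went the other way, at 21.7 and 26.9 CPM with and 199 and 186 CPM without these receptors. Zbtb16 did too, at 6.19 and 17.9 CPM with (2 and 8 UMIs) and 114 and 158 CPM without (16 and 22 UMIs). For Tbx21 the control intervals of the 2 sides overlapped (142 to 239 CPM with and 54.4 to 167 CPM without), so Tbx21 did not set them apart in that library. Id2 was high on both sides, at 932 and 718 CPM with and 831 and 731 CPM without. Barcodes with Ncr1 or Klre1 were deeper, with medians of 4975.5 and 5621 UMIs against 3327.5 and 3675. Of the 8 and 16 lymph node gamma-delta barcodes, 0 had an Ncr1 or Klre1 UMI.

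**Figure D2:**
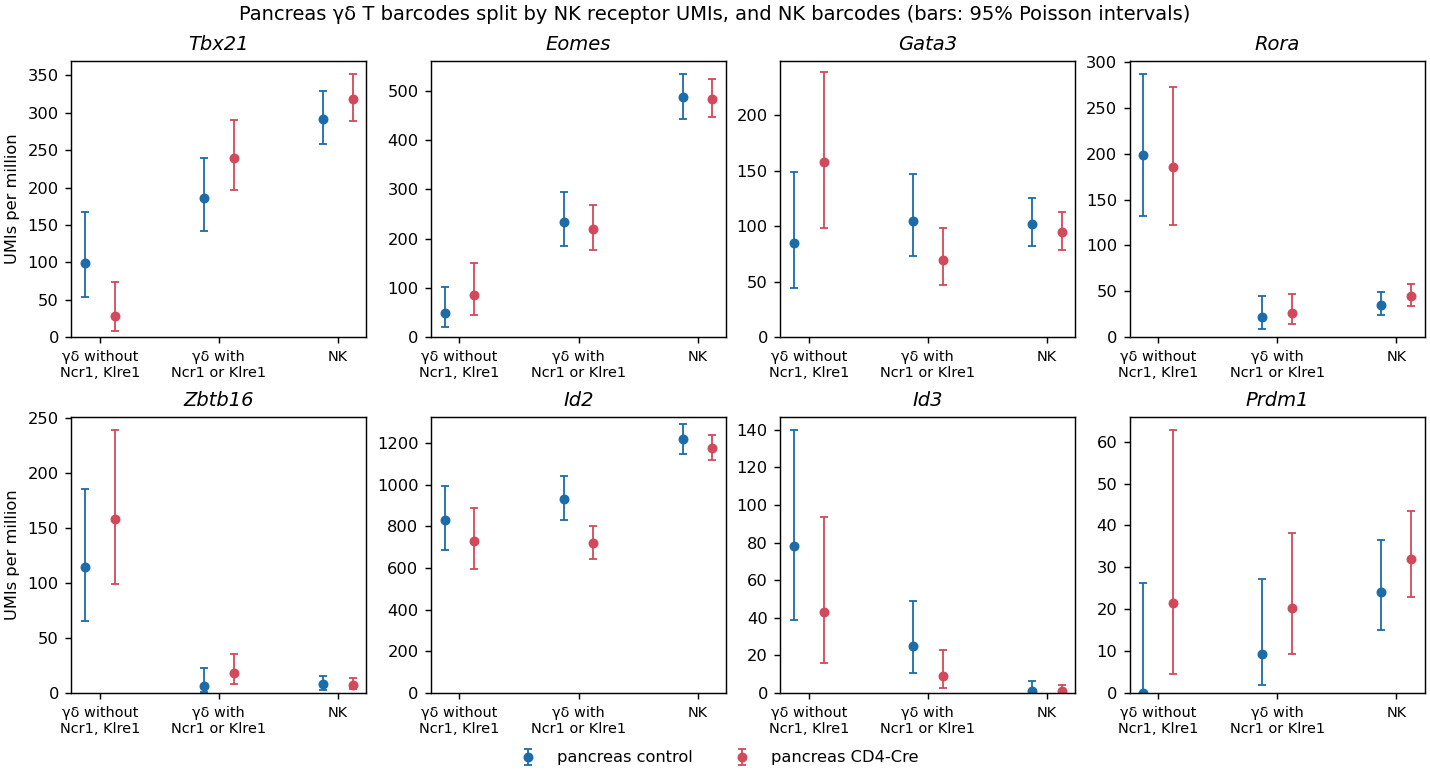
Level of each gene in pancreas gamma-delta barcodes without and with an Ncr1 or Klre1 UMI and in NK barcodes, in CPM on a linear axis, with exact Poisson 95% intervals, for the control and CD4-Cre libraries. Rora (199 and 186 CPM without, 21.7 and 26.9 CPM with) and Zbtb16 (114 and 158 CPM without, 6.19 and 17.9 CPM with) lie on the side without these receptors in both libraries.

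Id2 levels followed 1 order of the gates in both pancreas libraries, with no overlap of neighbouring intervals. CD4-only barcodes had 280 CPM (263 to 299) in the control and 211 CPM (201 to 222) in the CD4-Cre library, and CD8-only barcodes 599 CPM (565 to 636) and 382 CPM (360 to 404). Gamma-delta barcodes had 901 CPM (817 to 992) and 721 CPM (654 to 793), NK barcodes 1218 CPM (1147 to 1292) and 1177 CPM (1118 to 1239). ILC2 barcodes were highest, at 2205 CPM (1878 to 2574) and 1507 CPM (1288 to 1752). B cell barcodes had 27.9 and 34.4 CPM, below all 5 gates, while myeloid barcodes had 331 and 319 CPM. After thinning to 1000 UMIs, Id2 was detected in 16.38% and 13.94% of CD4-only, 35.07% and 24.33% of CD8-only, 58.82% and 64.06% of NK and 1.971% and 2.172% of B cell barcodes. Unthinned, the CD8-only shares were 62.72% and 50.71% and the CD4-only shares 32.18% and 30.16%. Lymph node Id2 stood at 101 CPM (92.8 to 109) and 78.4 CPM (73.4 to 83.7) in CD4-only and at 145 CPM (134 to 157) and 118 CPM (111 to 126) in CD8-only barcodes.

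Id3 had a different distribution from its paralogue. It was at 1 UMI in each pancreas NK gate (1.1 and 0.797 CPM) and at 0 and 1 UMI in ILC2 barcodes, where Id2 was highest. In the few ILC2 barcodes, 0 allows up to 41.1 CPM in the control, and the CD4-Cre interval reached 49.7 CPM. Both lie above the pancreas CD4-only levels, so absence of Id3 from ILC2 was not detectable. Pancreas CD4-only barcodes had 23.9 CPM (19 to 29.8; 79 UMIs) in the control and 45.3 CPM (40.6 to 50.5; 335 UMIs) in the CD4-Cre library. CD8-only barcodes had 37.5 CPM (29.2 to 47.4) and 49 CPM (41.5 to 57.5), with 42% of the 150 CD4-Cre UMIs in 5 barcodes. Gamma-delta barcodes had 19 UMIs in the control (41 CPM, 24.7 to 64), 78.95% of them in 5 barcodes, and 10 in the CD4-Cre library (17.1 CPM, 8.19 to 31.4). Lymph node CD4-only barcodes were at 107 CPM (99.2 to 116) and 104 CPM (98 to 110), and CD8-only barcodes at 57.7 CPM (50.6 to 65.5) and 66.5 CPM (61.1 to 72.3). Pancreas B cell barcodes themselves carried Id3, at 113 and 133 CPM, so the NK gate is the better background for this gene.

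Prdm1 was low in every gate. CD4-only pancreas barcodes held 56 UMIs in the control (17 CPM, 12.8 to 22) and 74 in the CD4-Cre library (10 CPM, 7.87 to 12.6). CD8-only barcodes held 41 UMIs in each (22 CPM, 15.8 to 29.8, and 13.4 CPM, 9.61 to 18.2), and NK barcodes 22 and 40 UMIs (24.2 and 31.9 CPM). Gamma-delta barcodes held 3 and 12 UMIs and ILC2 barcodes 1 and 0, where 0 allows up to 26.7 CPM. B cell barcodes had 1.25 and 2.17 CPM and myeloid barcodes 8.42 and 4.94 CPM. The lymph node CD4-only gate held 10 UMIs in each library and the CD8-only gate 2 and 4.

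Between the genotypes, members were counted as different where the ratio of levels passed 1.5-fold and the libraries together held at least 20 UMIs. In pancreas CD4-only barcodes 3 of 7 such members passed, where 9.95% of 10091 genes did (3.97% higher and 5.98% lower in the CD4-Cre library). Id3 was higher in the CD4-Cre library, with a log2 ratio of 0.92 (0.56 to 1.29), and Prdm1 and Eomes were lower, at -0.76 (-1.28 to -0.23) and -1.16 (-2.11 to -0.22). The Eomes value became -0.01 when doublets were kept, and the cause was not tested. Id2 lay short of 1.5-fold at -0.41 (-0.53 to -0.29), though its interval excluded 0. Gata3 at -0.01 (-0.23 to 0.21), Rora at 0.10 (-0.19 to 0.40) and Tbx21 at -0.30 (-0.68 to 0.09) had intervals that included 0. The median log2 ratio was -0.30 over the 7 members and 0.02 over all genes counted. Summed myeloid markers in this gate were 484 CPM in the control (1 of 10 at 0) and 219 CPM in the CD4-Cre library (0 of 10 at 0), and their part in these values was not tested.

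In pancreas CD8-only barcodes 3 of 7 members passed 1.5-fold, all lower in the CD4-Cre library, beside 15.0% of 9291 genes in either direction (7.01% higher and 8.04% lower). These were Prdm1 at -0.71 (-1.37 to -0.05), Tbx21 at -0.68 (-1.05 to -0.30) and Id2 at -0.65 (-0.77 to -0.53) on the log2 scale. With a pseudocount of 10 CPM, Tbx21 (-0.57) and Prdm1 (-0.45) no longer passed the fold. Rora was at -0.49 (-0.91 to -0.06), and Eomes at -0.16 (-0.40 to 0.09) and Id3 at 0.39 (-0.03 to 0.82) had intervals that included 0. The CD8-only gate had a lower summed Tbx21 level in the CD4-Cre library beside a summed Eomes level that did not differ beyond counting error. Unthinned shares of barcodes were lower for both genes, at 19.26% and 14.17% for Tbx21 and 30.37% and 22.99% for Eomes, control first. The Eomes shares were 19.95% and 12.96% when thinned to 2000 UMIs and 8.458% and 8.847% when thinned to 1000 UMIs. Summed NK markers in this gate, a list of 12 with 0 undetected, were 4245 CPM in the control and 2701 CPM in the CD4-Cre library, and their part in these values was not tested.

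In NK barcodes 0 of 6 members passed 1.5-fold, where 16.9% of 7798 genes did (8.95% higher and 7.96% lower), and the Id2 log2 ratio was -0.05 (-0.16 to 0.06). In gamma-delta barcodes 1 of 7 passed, where 19.8% of 5967 genes did (9.87% higher and 9.92% lower): Id3 was lower at -1.26 (-2.53 to -0.09), on 19 and 10 UMIs. It was detected in 9 barcodes of each library (8.824% and 8.257%), and 1 control barcode held 7 of the 19 UMIs. Id2 was at -0.32 (-0.52 to -0.12) in gamma-delta and at -0.55 (-0.87 to -0.23) in ILC2 barcodes, the latter on 161 and 169 UMIs from 17 and 29 barcodes. In ILC2 barcodes 1 of 3 members passed, where 26.6% of 1330 genes did: Rora was higher at 0.62, with an interval of -0.18 to 1.48 that included 0. Shares near or below these background percentages are no result about the members.

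In the lymph node 1 of 7 members passed 1.5-fold in CD4-only barcodes, where 9.05% of 10333 genes did (2.28% higher and 6.76% lower). This was Prdm1 at -0.92 (-2.34 to 0.50), on 10 UMIs in each library. In CD8-only barcodes 0 of 6 passed, where 9.50% of 9763 genes did (2.04% higher and 7.46% lower). Summed proliferation markers, a list of 6 with 0 undetected, were at 115 and 30.8 CPM in CD4-only and at 60.9 and 12.8 CPM in CD8-only barcodes, control first, and their part in these values was not tested. Id2 was lower in the CD4-Cre library in both gates, at -0.36 (-0.51 to -0.21) and -0.30 (-0.45 to -0.15), while the median of all genes was -0.08 and -0.11. Before filtering, 1.013% of control and 9.39% of CD4-Cre lymph node barcodes had more than 10% mitochondrial UMIs. After filtering, B cell barcodes numbered 36 and 0, and the part of these library differences was not tested. TMM scaling moved CD8-only log2 ratios by 0.12, to -0.17 for Id2 and 0.33 for Id3. Id3 in lymph node CD4-only barcodes was at -0.05 (-0.18 to 0.09), and whether this differs from the pancreas value of 0.92 was not tested. Id2 was lower in the CD4-Cre library in 6 of the 7 comparisons with an interval that excluded 0, the exception being NK barcodes. Unthinned, the share of barcodes with Id2 was lower too in the CD4-only and CD8-only gates of both tissues. The pancreas CD4-only intervals overlapped (29.07 to 35.41 and 28.14 to 32.25), and thinned to 2000 UMIs these shares were 22.9% and 22.7%. Thinned to 1000 UMIs, only the pancreas CD8-only intervals were apart (30.41 to 39.96 and 21.03 to 27.87). Lymph node shares were then 6.822% and 6.291% in CD4-only and 12.85% and 10.69% in CD8-only barcodes, with overlapping intervals. In gamma-delta barcodes this share was 78.43% and 83.49% unthinned and 52.94% and 44.95% thinned to 1000 UMIs, control first. In ILC2 barcodes it was 94.12% and 93.1% unthinned and 66.67% and 78.57% thinned. Of the control ILC2 barcodes, 5 held 67.08% of the Id2 UMIs.

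**Figure D3:**
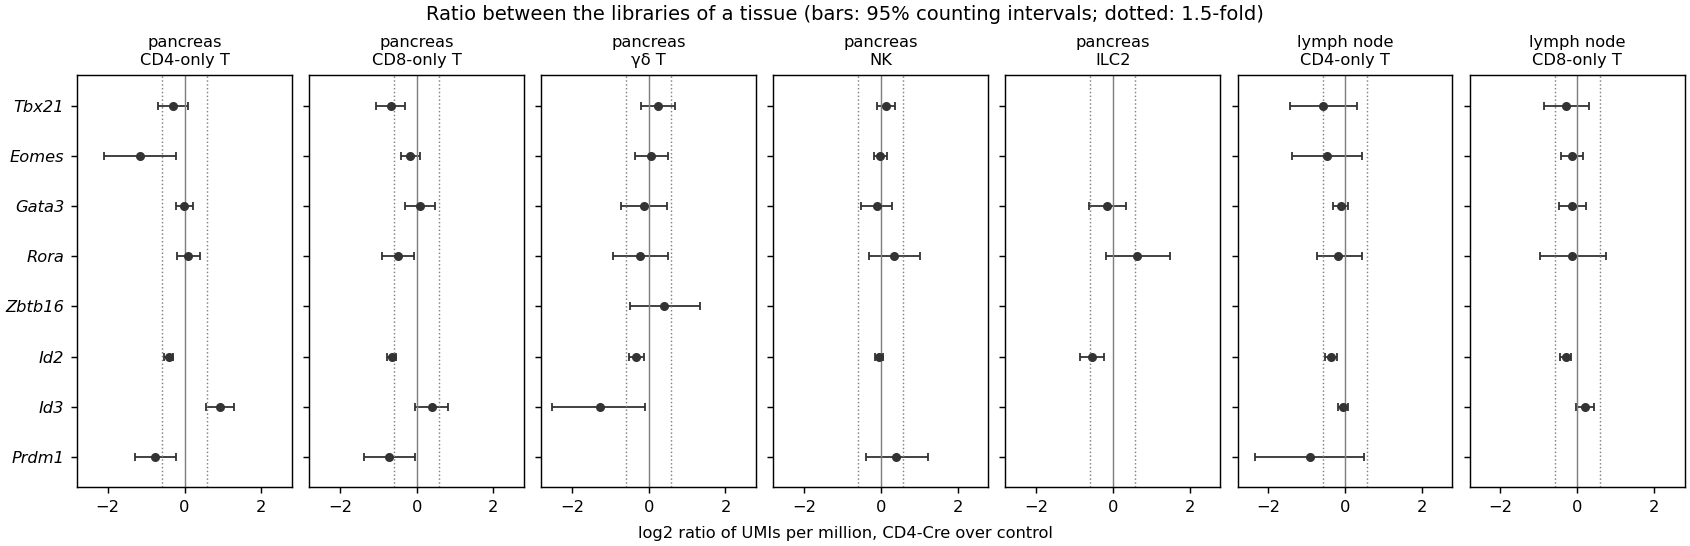
Log2 ratio of the level in the CD4-Cre over the control library for each gene with at least 20 UMIs, in 7 panels (5 gates of pancreas and 2 of lymph node), with intervals from the exact binomial of the counts; dotted lines mark 1.5-fold. The Id2 interval lies below 0 in 6 of the 7 panels and includes 0 in NK, and Id3 lies above the line in pancreas CD4-only barcodes (0.92) and below it in gamma-delta barcodes (-1.26).

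Foxp3, the factor of regulatory T cells, was detected in 6.481% of control and 6.307% of CD4-Cre pancreas CD4-only barcodes, 56 and 124 barcodes. In these barcodes, a group chosen after seeing the data, Id3 was at 25.6 CPM (8 UMIs) in the control and 95.2 CPM (59 UMIs) in the CD4-Cre library. The log2 ratio was 1.89 (0.82 to 3.17), and 5 CD4-Cre barcodes held 50.85% of the 59 UMIs, 11 of them in 1 barcode. Prdm1 was at 96 and 45.2 CPM (-1.09), Tbx21 at 83.2 and 38.7 CPM (-1.10) and Id2 at 294 and 185 CPM (-0.67). Gata3 was at 80 and 123 CPM, a log2 ratio of 0.62 with an interval that included 0 (-0.05 to 1.33). The control values rested on few barcodes: 1 barcode held 29 of the 92 Id2 UMIs, 5 held 69.23% of the Tbx21 UMIs, and the share with Id2 was 30.36% in the control and 33.06% in the CD4-Cre library. Barcodes with no Foxp3 UMI, the great majority, had Id3 at 23.8 and 40.8 CPM (0.78), Prdm1 at 8.7 and 6.8 CPM (-0.36) and Tbx21 at 21.4 and 20.7 CPM (-0.05). The Prdm1 difference in the whole CD4-only gate thus rested largely on 30 control and 28 CD4-Cre UMIs in Foxp3-positive barcodes, and without them it no longer passed 1.5-fold. In lymph node Foxp3-positive barcodes (92 and 222) Id3 was at 136 and 216 CPM (0.67), whereas Rora was at 25.8 and 6.07 CPM on 14 and 6 UMIs. Id2 was at 57.1 and 77.9 CPM there, a log2 ratio of 0.45 (-0.17 to 1.10), opposite in sign to the pancreas value of -0.67.

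Genes of the programmes that these factors govern were counted the same way, from lists chosen with earlier results of these data known. In pancreas CD8-only barcodes 9 of 18 counted genes of a late effector and tissue residence list were lower and 0 higher past 1.5-fold, where 8.04% of all genes were lower (median log2 ratio -0.49, beside -0.01 for all genes). Among them Cx3cr1, a chemokine receptor of terminal effector cells, was at 58.9 CPM in the control and 12.7 CPM in the CD4-Cre library, and Klrg1 at 36.4 and 7.84 CPM. Gzma, a granule protease, was at 997 and 245 CPM. Of the type 1 list 5 of 15 were lower and 0 higher (median -0.27), with Il18rap, part of the IL-18 receptor, at 46.1 and 20.9 CPM and Fasl at 120 and 62.4 CPM. Of 12 naive T cell factors 1 was higher and 0 lower, and of 6 E protein and Id partner genes 0 passed in either direction. Tbx21, Prdm1 and Id2 were lower in this gate too, but the lists were chosen with earlier results known, so their counts are no independent support. Late effector genes were also lower in pancreas CD4-only barcodes, as given below. The gate sums naive and effector cells together, and in these sums fewer effector cells and less RNA of a gene per cell cannot be told apart.

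In pancreas CD4-only barcodes 7 of 19 late effector genes were lower and 0 higher (median -0.30), and 2 of 15 type 1 genes were lower, where 5.98% of all genes were lower and 3.97% higher. A count of 1 or 2 genes is too small to set a list apart from that share. Ifng was at 43.6 CPM in the control and 24.6 CPM in the CD4-Cre library, a log2 ratio of -0.82 with a lower bound of -1.15, beside a Tbx21 ratio of -0.30. Of 11 type 2 genes 3 were lower and 1 higher (median -0.02). The 1 higher was Ccr4, at 5.45 and 10.2 CPM, and the 3 lower genes did not meet the rule for naming a gene. E protein and Id partner genes had 1 of 7 lower and 0 higher. In gamma-delta barcodes 5 of 11 genes of the innate-like and type 17 list were lower (median -0.55), where 9.92% of all genes were lower, among them Blk at 123 and 66.6 CPM and Cd163l1 at 304 and 183 CPM, while Zbtb16 was at 38.8 and 51.2 CPM. Barcodes without Ncr1 or Klre1, where Rora and Zbtb16 were higher, made up 39.22% of this gate in the control and 32.11% in the CD4-Cre library, and the part of this in the list was not tested. In NK barcodes 1 of 15 type 1 genes was higher and 0 lower, beside 0 of 6 members. There 2 of 6 type 2 genes and 2 of 5 innate-like and type 17 genes were higher and 0 lower, where 8.95% of all genes were higher. Of the latter list Cxcr6 was at 137 and 344 CPM. Naive factors and late effector genes each had 1 lower and 0 higher. In lymph node CD4-only barcodes 3 of 12 type 1 genes were lower, where 6.76% of all genes were and where summed proliferation markers were at 115 and 30.8 CPM: Ccl5 at 26 and 10.1 CPM, Fasl at 13.3 and 6.03 CPM and Cxcr3 at 24.2 and 12.9 CPM. In lymph node CD8-only barcodes 0 of 13 type 1 genes passed.

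Co-detection asked which members share a barcode. For each of the 28 pairs the barcodes with UMIs of both genes were compared with the number expected from the detection shares within 5 depth bins, since deep barcodes detect more of everything. Pairs were judged where at least 5 barcodes were observed or expected. In pancreas CD4-only barcodes 7 of 13 such pairs in the control and 10 of 16 in the CD4-Cre library exceeded expectation by more than 1.5 times. In CD8-only barcodes 3 of 20 did in each library. Pairs under expectation by more than 1.5 times numbered 0 and 1 in CD4-only and 2 and 0 in CD8-only barcodes, control first. In NK barcodes 0 of 16 and 0 of 18 pairs exceeded expectation by that factor and 3 and 0 fell short of it. Detection in the NK gate is so frequent (Id2 in 91.03% and 88.03%, Eomes in 68.16% and 73.24% of barcodes) that pairs with these genes could hardly or not at all exceed 1.5 times, so the NK count is not comparable with that of the CD4-only gate. Barcodes of 1 library share their source and are not replicates, so intervals cover counting error only.

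In both libraries the highest ratios among the CD4-only pairs were those within Tbx21, Rora and Prdm1. Tbx21 and Prdm1 were found together in 13 control barcodes, where 4.589 were expected (2.83 times, 1.51 to 4.84), and in 18 CD4-Cre barcodes, where 4.974 were expected (3.62 times, 2.15 to 5.72). Tbx21 and Rora shared 16 barcodes against 7.277 expected in the control (2.20 times) and 40 against 15.6 in the CD4-Cre library (2.56 times). Tbx21, Rora and Prdm1 were all detected more often in barcodes with a Foxp3 UMI. In the control their shares were 21.43%, 32.14% and 33.93% with Foxp3 and 5.446%, 8.54% and 2.599% without. In the CD4-Cre library they were 14.52%, 36.29% and 16.94% with and 5.429%, 8.849% and 2.117% without. The part of this in the pairs was not tested. Id2 was detected in 71.43% of control CD4-only barcodes with Tbx21 and 29.46% of those without, and in 67.8% and 27.76% in the CD4-Cre library.

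In NK barcodes Tbx21 and Eomes were at 1.02 times (0.823 to 1.25) in the control and 0.954 times (0.80 to 1.13) in the CD4-Cre library, a ratio bounded by their frequent detection and not to be set against the gates below. In pancreas CD8-only barcodes this pair was at 1.10 times (0.745 to 1.58) and 1.47 times (1.03 to 2.03). In lymph node CD8-only barcodes it was at 2.74 times (12 barcodes, 4.387 expected) and 2.46 times (21 barcodes, 8.526 expected). There Tbx21 was also found with Id3, in 15 of 20 control Tbx21-positive barcodes (75%, against 10.43% of the others) and 21 of 44 CD4-Cre ones (47.73%, against 12.46%). Id2 and Id3 were together in fewer control pancreas CD8-only barcodes than expected (16 against 27.26, 0.587 times, 0.336 to 0.953), but not in the CD4-Cre library (39 against 38.26, 1.02 times). In lymph node CD4-only barcodes they were together more often, at 1.501 times (1.20 to 1.86) and 1.27 times (1.05 to 1.52).

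In gamma-delta barcodes Rora and Zbtb16 were the pair detected together beyond 2 times expectation in both libraries, 10 barcodes against 3.824 expected in the control (2.62 times, 1.25 to 4.81) and 10 against 3.816 in the CD4-Cre library (2.62 times, 1.26 to 4.82). Zbtb16 was in 43.48% of control barcodes with Rora and 5.063% of those without, and in 47.62% and 6.818% in the CD4-Cre library. Eomes and Zbtb16 shared 3 of the CD4-Cre barcodes, where 5.314 were expected, and in the control the pair was under the minimum of 5. These pairings follow the split of the gate by Ncr1 and Klre1 described above, and are not independent of it.

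**Figure D4:**
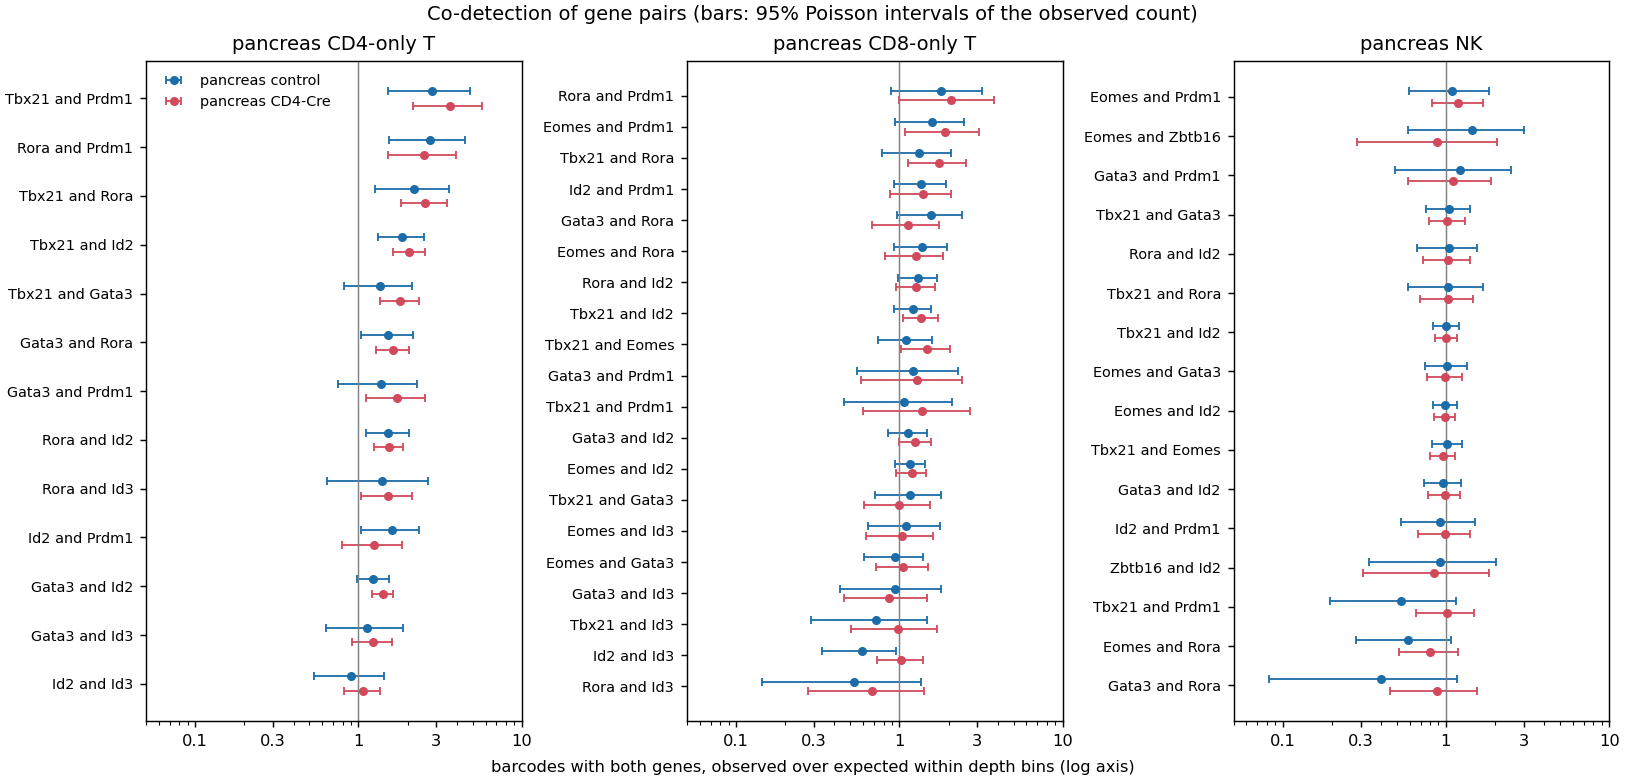
Observed over expected number of barcodes with both genes of a pair, on a log x axis, for pancreas CD4-only, CD8-only and NK barcodes; each row is a pair with enough barcodes in both libraries, colours are the libraries and bars are exact Poisson 95% intervals of the observed count. CD4-only pairs lie mostly above 1, with Tbx21 and Prdm1 at 2.83 and 3.62 times, and NK pairs lie around or below 1, with Tbx21 and Eomes at 1.02 and 0.954 times, where frequent detection bounds the ratio from above.

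More members were detected per barcode in the innate gates than in the T cell gates. At least 3 of the 8 genes were detected in 6.481% of control and 7.223% of CD4-Cre pancreas CD4-only barcodes, 23.7% and 19.53% of CD8-only, 40.2% and 48.62% of gamma-delta and 58.3% and 66.55% of NK barcodes. None was detected in 46.76% and 48.58% of CD4-only barcodes and in 0.448% and 1.41% of NK barcodes. In CD8-only barcodes the share with none was 18.77% in the control and 30.08% in the CD4-Cre library. These shares are unthinned, at medians of 3436.5 and 3451 UMIs for CD4-only, 3798 and 3886 for CD8-only, 4177 and 4459 for gamma-delta and 3723 and 3982 for NK barcodes.

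Over the 12 profiles of a gate in a library with at least 30 barcodes, the members were compared by Pearson correlation of log2(CPM + 10). The values are a description, because profiles share libraries and depth and pool both tissues. Tissue, age and cell selection differ together in them and cannot be told apart, and lymph node profiles held the highest Id3 levels (57.7 to 107 CPM). Id3 correlated negatively with each other member, and the others positively with each other, from 0.30 to 0.98. Tbx21 and Id2 correlated at 0.98, Tbx21 and Eomes at 0.90, and Id3 ran opposite to Tbx21 at -0.89 and to Id2 and Prdm1 at -0.85 each. Among 8856 genes, those most like Tbx21 were Pglyrp1 (0.995), Arhgap26 (0.994) and Il18rap (0.992). Those most like Eomes were Tm6sf1 (0.991), Cox8a (0.988) and Zyx (0.986). Id2 was closest to Cmtm7 (0.988), Ppp3ca (0.986) and Abr (0.986), and Id3 to Il21r (0.972), Gpr18 (0.934) and Sit1 (0.929). Gata3 was closest to St8sia4 (0.970), Mfsd6 (0.94) and Gpsm3 (0.938), and Rora to Vgll4 (0.986), Fam129a (0.982) and Klf6 (0.980). Prdm1 was closest to Tmf1 (0.962), Trps1 (0.959) and Zfp69 (0.955). For Zbtb16, with 82 UMIs over all profiles, Pacs2 (0.959), Lgals8 (0.959) and Eif2d (0.952) came closest, and this order rests on few counts. The ILC2 gates held too few barcodes to enter these profiles.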

How the data were processed

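Single-cell 5′ RNA libraries of pancreatic CD45+ cells and of pancreatic lymph node T cells were measured, 1 library for each of 4 groups. The deposited values are raw UMI counts per gene and barcode, unnormalized, per the file headers, which name software version 3.0.0. Cell Ranger and the genome mm10 are named in the submitters' processing notes. The annotation release is not given in the sources used here, and 30934 of 31053 gene IDs matched GENCODE M21 for GRCm38, which gave the gene positions. Promoters are from RefSeq, and Zbtb16 had no entry.

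Barcodes with at least 500 genes and at most 10% mitochondrial UMIs were kept. Doublets, scored against simulated pairs, were removed at 0.8% per 1000 barcodes. CD4-only and CD8-only T barcodes had a Cd3 UMI, no Trdc, and either Cd4 or Cd8a/Cd8b1 but not both. Gamma-delta barcodes had Cd3, Trdc and a Tcrg constant gene and no Cd4 or Cd8. NK barcodes lacked Cd3d, Cd3e, Trac, Cd4 and Cd8b1 and had at least 3 NK genes with Ncr1 or Klre1, and ILC2 barcodes lacked the same genes, were not NK and had at least 3 ILC2 genes with Il1rl1, Il5, Il13, Hs3st1 or Calca. Barcodes with more than 1 B cell or myeloid UMI were left out of these gates.

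Counts were summed per gate and library and given as CPM with exact Poisson 95% intervals. Ratios have intervals from the exact binomial of the counts and shares have Clopper-Pearson intervals, and a count of 0 allows 3 counts. All cover counting error only. Gates under 12 barcodes gave no ratio or share. This minimum was lowered after results were known, which changed no main value and added only the ILC2 values under the stricter barcode filter. Pearson correlations used log2(CPM + 10) and compared each member, whatever its count, with genes of at least 200 UMIs. There was 1 library per group, so nothing was tested. Ratios and co-detection were checked on simulated counts. All 8 genes were always named. List genes were named, up to 4 per list and comparison, where the higher library had at least 50 UMIs and the interval excluded 0. Members and lists were chosen with earlier results of these data known.

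Alternatives were other barcode filters, keeping doublets, edgeR TMM and DESeq2 size factors, equal weight per barcode, a pseudocount of 10 CPM, stricter gates, subsets by Foxp3 and Trac, other UMI minimums and thinning to 2000 UMIs. Splits by Ncr1 and Klre1 and Foxp3-positive barcodes alone were chosen after seeing the data. A further planned division of the CD4-only and CD8-only gates is not reported here. Python 3.11.15, numpy 2.4.6, scipy 1.17.1, pandas 2.3.3, scikit-learn 1.9.0, matplotlib 3.10.9, R 4.3.3, edgeR 4.0.16 and DESeq2 1.42.0 were used.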

Additional observations from a re-analysis of the deposited data

Results flagged for a closer look

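Id3 differed in opposite directions in pancreas CD4-only and gamma-delta barcodes under the same comparison of CD4-Cre with control. Its log2 ratio was 0.92 (0.56 to 1.29) in CD4-only barcodes, on 79 control and 335 CD4-Cre UMIs. It was -1.26 (-2.53 to -0.09) in gamma-delta barcodes, on 19 and 10 UMIs, with 78.95% of the 19 in 5 barcodes and 7 in 1 barcode. The share of gamma-delta barcodes with Id3 did not show this difference, at 8.824% and 8.257% (9 barcodes each). Both counting intervals excluded 0, but each group was 1 library and the difference between the gates was not tested.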

How the results depend on the processing

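No paired analysis was possible because each group was 1 library and the labels give no replicate numbers. Of the log2 ratios recomputed under the alternatives, 375 stayed within the counting interval and 17 moved beyond it. For co-detection 411 values stayed within theirs and 20 moved beyond it. The Id3 log2 ratio in pancreas CD4-only barcodes ranged from 0.71 to 1.89, and that of Id2 from -0.67 to -0.31.

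Counts of members past 1.5-fold were more sensitive, with 63 within 1.5 times and 14 beyond. In pancreas CD4-only barcodes the count of 3 became 1 with equal weight for each barcode, 1 with a pseudocount of 10 CPM and 5 in Foxp3-positive barcodes. In CD8-only barcodes 3 became 1 with the pseudocount. In gamma-delta barcodes 1 became 2 with no UMI minimum and 0 with a minimum of 50. In ILC2 barcodes 1 became 0 with all barcodes and 0 with at least 1000 genes and at most 5% mitochondrial UMIs. In lymph node CD4-only barcodes 1 became 2 with no minimum and in Foxp3-positive barcodes, and 0 with a minimum of 50, with all barcodes, with doublets kept and with the pseudocount. Causes were not tested. Detection shares depend on the thinning depth, and 145 of them moved while 95 did not. Depth limits values on few UMIs, such as Eomes in pancreas CD4-only barcodes (21 and 21) and Id3 in gamma-delta barcodes (19 and 10).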
